A study of Canis lupus familiaris with 2 samples.

Results

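Docosahexaenoic acid (DHA) supply and lipid synthesis were followed in the normal dog retina through 10 genes, *ELOVL2*, *ELOVL4*, *ELOVL5*, *FADS1*, *FADS2*, *MFSD2A*, *ADIPOR1*, *LPCAT1*, *AGPAT3* and *ACSL6*. They were chosen by name, and all 10 are listed in the counts of both dogs, among 34981 genes in N350 and 19947 genes in N354. Neuroretina was punched out, dissociated and captured as single cells in droplets, where a unique molecular identifier (UMI) marks each mRNA molecule so that it is counted once. Both dogs, N350 and N354, were males 40 weeks old with a normal or wild-type genotype and no treatment is named, so that the comparisons below are between cell classes and the dogs are the replicates (n = 2).

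DHA is the fatty acid that gives the membranes of photoreceptor outer segments their fluidity, and the retina holds more of it than nearly any other tissue. It can be made from shorter dietary fatty acids by alternating desaturation and elongation with a last shortening step in peroxisomes, or it can be taken up ready-made from blood. Inside a cell it is joined to coenzyme A and then built into phospholipids by acyltransferases, and a photoreceptor elongase extends part of the pool to chains of very great length.

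Cells with at least 200 genes were placed in classes by raw UMIs of marker genes, none of which is among the 10 genes or the pathway lists below. N350 had 8900 cells with 24030707 UMIs and a median of 1298 UMIs per cell, and 76.3% of its cells entered a class. N354 had 4392 cells with 9711202 UMIs and a median of 1204.5, and 73.4% of its cells entered a class. The dogs share 6 cell barcodes. Rods numbered 4528 in N350 and 2170 in N354, cones 419 and 223, Müller glia 843 and 400, bipolar cells 383 and 294, amacrine cells 262 and 31, and horizontal cells 132 and 22. A gate for astrocytes held 149 and 63 cells that were led by *WFDC2*, *FGG* and *GFAP*, with 10 and 3 UMIs of *PAX2*, and they are called astrocyte-like here. Of the 6 markers of this gate, 0 were without a UMI in these cells of N350 and 2 in those of N354. Ganglion cells, microglia, endothelial cells and pericytes were too few in a dog for the test. The median share of mitochondrial UMIs was 4.81% in rods and 6.20% in Müller glia of N350, and 6.73% and 9.79% in those of N354. Markers of the retinal pigment epithelium, the layer next to the retina that handles much of its lipid, summed to 43 UMIs over 6 genes in all cells of N350 and to 14 UMIs over the 5 listed genes in N354.

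The 10 genes divided by direction between rods and Müller glia, and some were also high in other classes. *ELOVL4*, *AGPAT3*, *LPCAT1*, *ADIPOR1* and *ACSL6*, which act on extension, retention, activation and esterification, were higher in rods than in Müller glia, by 4.74-fold to 10.7-fold. *FADS1*, *FADS2*, *ELOVL5* and *MFSD2A* were lower in rods than in Müller glia, by 22-fold to 61.1-fold. They act on desaturation, on elongation of shorter intermediates and on uptake from blood. *ELOVL2*, an elongase of later intermediates, was not called different between rods and Müller glia. UMIs were summed per dog and class and tested with edgeR in 1 fit over 7 classes, with dog as a block and Benjamini-Hochberg adjustment over 12024 genes. Of the 10 genes, 9 were called at an adjusted p under 0.05 in rods against Müller glia, beside 58.3% of all genes tested (28.3% higher, 30% lower), so that a call alone says little here and the sizes and values per dog are given for each gene. In cones against Müller glia all 10 genes were called, 6 higher and 4 lower, beside 43.9% of all genes (20.1% higher, 23.8% lower). Without the block, 5 of the 10 genes were called in rods and 3 in cones, beside 19.4% and 9.50% of all genes, and each p without the block that changes a call is given with its result. A level is the number of UMIs of a gene per 10000 UMIs of all genes in a class, and intervals in brackets are 95% counting intervals. Amacrine cells stood at 92.3% and 96.5% of the level of *FADS1* in Müller glia in N350 and N354. *MFSD2A* was highest in the few vascular cells, 10.3-fold and 6.23-fold above Müller glia, the latter from 3 UMIs. The few ganglion cells of N350 were not below Müller glia in *ELOVL5*. The fold changes of edgeR rest on TMM scaling, which lowers the median gene by 0.43 (log2) in rods against Müller glia and by 0.39 in cones against Müller glia relative to plain ratios of levels.

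**Figure D1:**
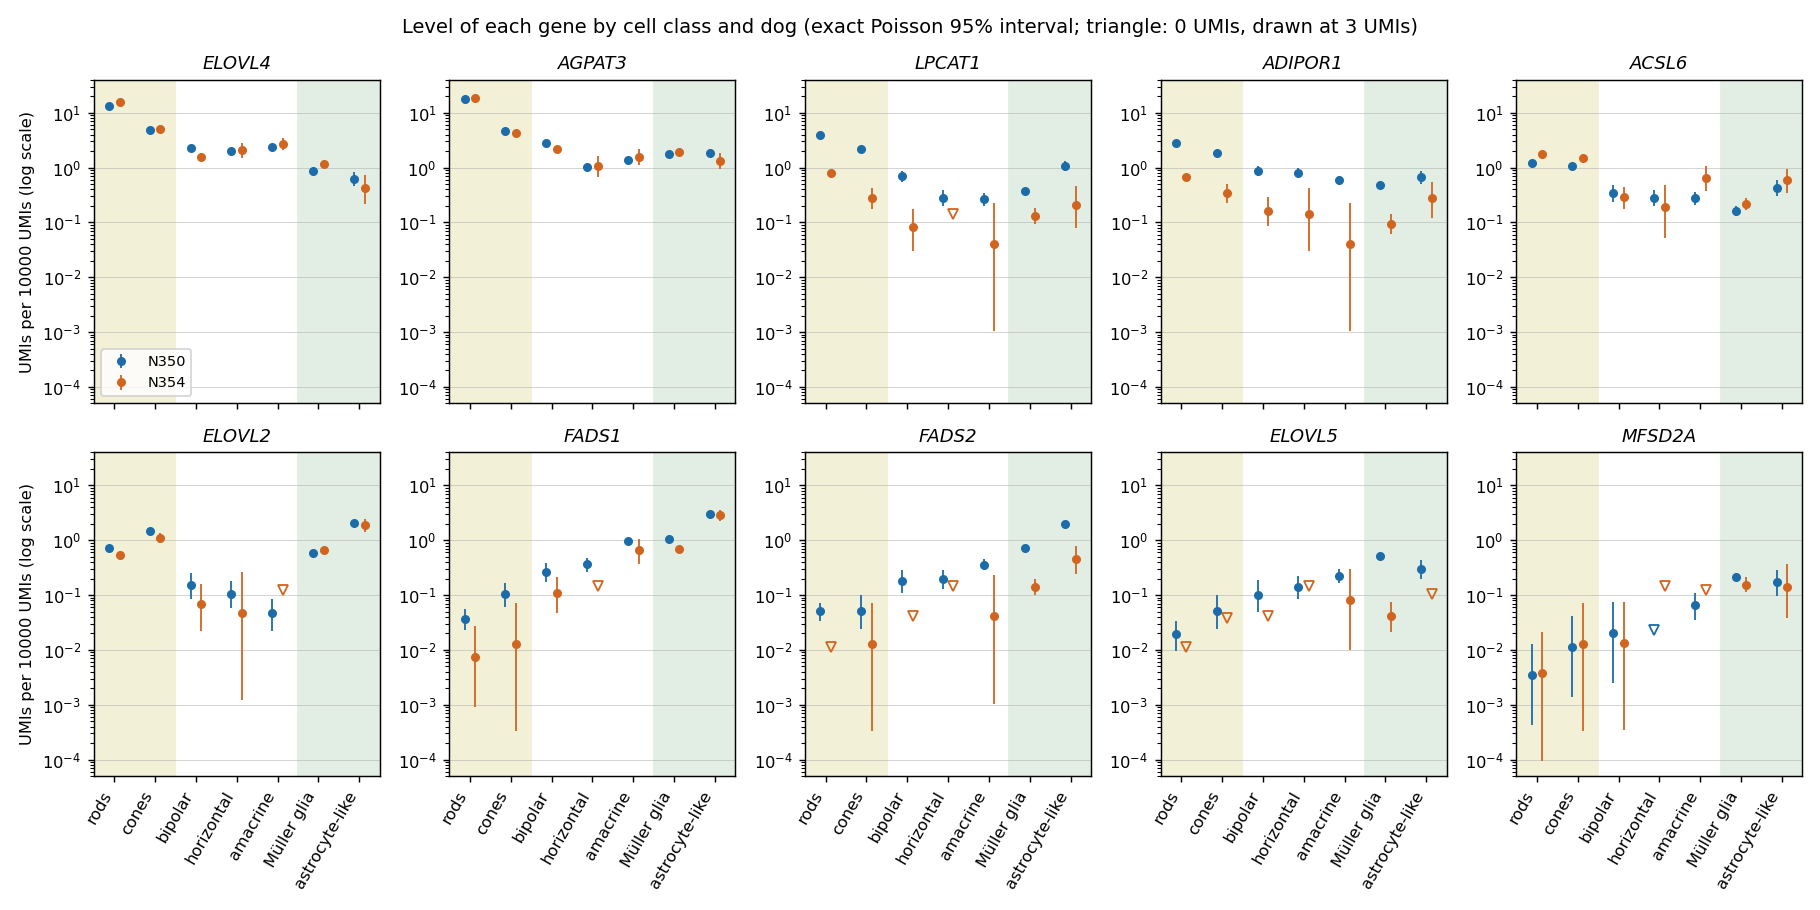
Level of each gene (UMIs per 10000 UMIs, log axis) in 7 cell classes of N350 (blue) and N354 (orange), with exact Poisson 95% intervals as bars and open triangles at 3 UMIs where no UMI was found. Yellow bands mark rods and cones and green bands mark Müller glia and astrocyte-like cells. *ELOVL4* and *AGPAT3* fall from the left band to the right band in both dogs, and *FADS1* climbs the other way, from 0.0367 and 0.00747 in rods to 2.98 and 2.86 in astrocyte-like cells.

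FADS2 and FADS1 are the desaturases that place new double bonds near the carboxyl end of the chain, FADS2 at the entry of the pathway and FADS1 after the first elongation. *FADS1* had a level of 1.04 (0.960 to 1.12) in Müller glia of N350 and of 0.682 (0.586 to 0.789) in those of N354. In rods it had 21 UMIs in N350 and 2 UMIs in N354, levels of 0.0367 and 0.00747. Both dogs therefore had far more of it in Müller glia, by 28.3-fold (18.4 to 46.0) in N350 and by 91.3-fold (24.9 to 759) in N354. The log2 fold change of rods over Müller glia was −5.53 (SE 0.40, edgeR adjusted p = 1.46e-10, and 0.0158 without the block). For cones it was −4.11 (SE 0.43, adjusted p = 7.11e-08), which was not called without the block (adjusted p = 0.0646). Astrocyte-like cells had the highest level of *FADS1* in each dog, 2.98 (2.63 to 3.37) and 2.86 (2.27 to 3.56), 2.87-fold (2.48 to 3.33) and 4.20-fold (3.19 to 5.48) above Müller glia. Amacrine cells, with 0.958 and 0.658, had levels whose ratio to those of Müller glia had an interval that included 1 in each dog.

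*FADS2* had the same order at the top with a large difference between dogs. Its level was 1.94 (1.66 to 2.26) in astrocyte-like cells of N350 and 0.459 (0.245 to 0.785) in those of N354, and 0.725 and 0.140 in Müller glia. Rods had 29 UMIs in N350, a level of 0.0506, and none in N354, where 2676456 UMIs of rods allow a level of up to 0.0112. Müller glia were 14.3-fold (9.83 to 21.6) above rods in N350 and at least 12.5-fold higher in N354, against 3 UMIs in rods. The log2 fold change of rods over Müller glia was −4.46 (SE 0.41, edgeR adjusted p = 4.98e-09), and that of cones was −4.24 (SE 0.50, adjusted p = 4.19e-07). Neither was called without the block (adjusted p = 0.149 and 0.255).

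ELOVL5 is the elongase of the first, shorter intermediates. *ELOVL5* was measured well in N350 alone, with 572 UMIs in all cells, against 17 UMIs in N354. In N350 its level was 0.525 (0.469 to 0.584) in Müller glia, 0.302 (0.197 to 0.442) in astrocyte-like cells and 0.0192 in rods (11 UMIs), so that Müller glia were 27.3-fold (15.1 to 55.2) above rods. Amacrine cells of N350 had 0.224 (0.165 to 0.297), above cones, bipolar and horizontal cells. In N354, 11 of its 17 UMIs were in Müller glia, a level of 0.0417, 2 in amacrine cells, a level of 0.0822 (0.00996 to 0.297), and none in rods or cones, which puts Müller glia at least 3.72-fold above rods, against 3 UMIs in rods. The 24 ganglion cells of N350, too few for the test, had 33 UMIs and a level of 0.597 (0.411 to 0.838), an interval that holds the level of Müller glia. The log2 fold changes over Müller glia were −5.17 (SE 0.47, edgeR adjusted p = 4.83e-09) in rods and −3.82 (SE 0.51, adjusted p = 2.01e-06) in cones. Neither was called without the block (adjusted p = 0.139 and 0.337).

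ELOVL2 carries out the later elongations that lead to DHA, and its gene is a well known marker of age through its methylation. *ELOVL2* was highest in astrocyte-like cells, 2.05 (1.76 to 2.38) in N350 and 1.91 (1.43 to 2.49) in N354. Cones followed with 1.5 (1.32 to 1.69) and 1.11 (0.886 to 1.37), which was 2.03-fold (1.73 to 2.38) and 2.09-fold (1.58 to 2.75) above rods. Rods and Müller glia came next, with 0.737 and 0.531 in rods and 0.591 and 0.659 in Müller glia, and bipolar, horizontal and amacrine cells had at most 0.152. The order of rods and Müller glia differed between the dogs, since rods were 1.25-fold (1.08 to 1.44) above Müller glia in N350 and 0.805-fold (0.640 to 1.0) of them in N354. The log2 fold change of rods over Müller glia was −0.41 (SE 0.22, edgeR adjusted p = 0.120), below 0 only after TMM scaling in N350. Cones were higher than Müller glia by 0.66 (SE 0.23, adjusted p = 0.0228) and higher than rods by 1.07 (SE 0.23, adjusted p = 0.00134). Neither was called without the block (adjusted p = 0.566 and 0.559), and the first was not called by DESeq2 (adjusted p = 0.277).

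ELOVL4 is the elongase that extends polyunsaturated chains beyond DHA in photoreceptors, and changes in its gene cause a dominant macular dystrophy in people. *ELOVL4* had a level of 13.3 (12.97 to 13.57) in rods of N350 and 15.7 (15.3 to 16.2) in rods of N354. Cones had 4.88 (4.56 to 5.22) and 5.0 (4.52 to 5.52), and Müller glia had 0.876 (0.804 to 0.952) and 1.15 (1.02 to 1.28). The classes kept this order in both dogs with no overlap. Rods were higher than Müller glia by a log2 fold change of 3.42 (SE 0.22, edgeR adjusted p = 3.37e-11, and 0.000662 without the block), and cones by 1.91 (SE 0.22, adjusted p = 2.33e-07, and 0.00771 without the block). Amacrine cells, at 2.37 and 2.67, horizontal cells, at 2.0 and 2.06, and bipolar cells, at 2.24 and 1.57, lay between cones and Müller glia. Astrocyte-like cells were lowest, at 0.627 and 0.424. After each cell was thinned to 1000 UMIs, 73.3% of rods of N350 and 78.3% of those of N354 had a UMI of *ELOVL4*, against 8.47% and 9.76% of Müller glia. Before thinning the shares were 74.6% and 78.4% of rods and 38.6% and 39.8% of Müller glia, which had medians of 7521 and 6285.5 UMIs per cell against 1107 and 1054 in rods. Thinning left out 1831 and 988 rods and 79 and 30 Müller glia.

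MFSD2A is the transporter that carries DHA bound to lysophosphatidylcholine across the endothelium of brain and retina. *MFSD2A* had 135 UMIs in Müller glia of N350 and 41 in those of N354, levels of 0.215 (0.180 to 0.254) and 0.155 (0.111 to 0.211). Astrocyte-like cells had similar levels of 0.174 (0.0975 to 0.287) and 0.141 (0.0385 to 0.362), with ratios to Müller glia whose intervals included 1. Rods had 2 UMIs in N350 and 1 in N354, and cones had 2 and 1, which is too few for a fold change between them, and the test did not call the gene (edgeR adjusted p = 0.315). Müller glia were 61.4-fold (16.7 to 513) and 41.6-fold (7.06 to 1682) above rods. The log2 fold changes over Müller glia were −5.93 (SE 0.56, edgeR adjusted p = 1.29e-08, and 0.00510 without the block) in rods and −4.37 (SE 0.62, adjusted p = 6.60e-06, and 0.0285 without the block) in cones. The highest level of *MFSD2A* was outside these classes. The 25 endothelial cells of N350 held 19 of its UMIs, a level of 1.95 (1.17 to 3.04) and 7.04% of the UMIs of the gene in 0.407% of all UMIs. The 6 cells in the pericyte gate of N350 held more, 27 UMIs or 10.0% of the gene in 0.461% of all UMIs. With endothelial cells and pericytes joined, a grouping made after the values were seen, 31 cells of N350 held 46 UMIs, which was 17.0% of the UMIs of the gene in 0.868% of all UMIs. Their level of 2.21 (1.62 to 2.95) was 10.3-fold (7.20 to 14.5) above Müller glia. Only 14 of the 31 cells had a UMI of the gene, and 27 of the 46 UMIs came from the pericyte gate. The counting interval does not cover this spread between cells. In N354 the 7 such cells held 3 UMIs, all in 1 cell, a level of 0.968 (0.200 to 2.83) that was 6.23-fold (1.23 to 19.5) above Müller glia. None of the other 9 genes had a joined vascular level in N350 more than 2.14-fold above that of Müller glia. Müller glia themselves held endothelial markers at a summed level of 2.66 in N350 and 3.94 in N354, with 2 and 4 of the 8 markers at 0, and the part of this in their *MFSD2A* was not tested.

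ADIPOR1 is a membrane protein named for its adiponectin ligand, and mice that lack it lose retinal DHA and then photoreceptors. *ADIPOR1* had a level of 2.79 (2.66 to 2.93) in rods of N350 but of 0.673 (0.578 to 0.778) in rods of N354. In each dog the order was the same, with 1.86 and 0.348 in cones and 0.472 and 0.0947 in Müller glia. Rods were 5.91-fold (5.22 to 6.72) above Müller glia in N350 and 7.10-fold (4.66 to 11.3) above them in N354. The log2 fold changes over Müller glia were 2.24 (SE 0.23, edgeR adjusted p = 2.66e-08) in rods and 1.54 (SE 0.24, adjusted p = 2.27e-05) in cones, and neither was called without the block (adjusted p = 0.327 and 0.584).

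ACSL6 joins fatty acids to coenzyme A with a preference for DHA. *ACSL6* had levels of 1.24 (1.15 to 1.33) and 1.79 (1.64 to 1.96) in rods, 1.05 (0.901 to 1.21) and 1.48 (1.22 to 1.78) in cones and 0.164 (0.134 to 0.199) and 0.220 (0.167 to 0.284) in Müller glia. It was the member of the photoreceptor group with the nearest levels in rods and cones, 1.18-fold (1.0 to 1.40) and 1.21-fold (0.985 to 1.5) apart. Rods were higher than Müller glia by 2.54 (SE 0.23, edgeR adjusted p = 5.10e-09, and 0.00431 without the block) and cones by 2.32 (SE 0.24, adjusted p = 7.65e-08, and 0.0122 without the block). Astrocyte-like cells, at 0.430 and 0.601, were 2.62-fold (1.75 to 3.85) and 2.73-fold (1.49 to 4.76) above Müller glia, with intervals above 1 in both dogs.

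AGPAT3 is an acyltransferase that places DHA on the glycerol backbone of new phospholipids. *AGPAT3* had a level of 18.1 (17.7 to 18.4) in rods of N350 and 18.3 (17.8 to 18.8) in rods of N354, the nearest levels between dogs among the 10 genes in rods. Cones had 4.58 and 4.24, Müller glia 1.79 and 1.91, and bipolar cells 2.80 and 2.15. Rods were higher than Müller glia by 2.87 (SE 0.20, edgeR adjusted p = 7.20e-11, and 0.000662 without the block). Cones were higher than Müller glia by 0.86 (SE 0.19, adjusted p = 0.000872), which was not called without the block (adjusted p = 0.0811). LPCAT1 is an acyltransferase that remakes phosphatidylcholine, and its loss causes photoreceptor degeneration in mice. *LPCAT1* had 4.0 (3.84 to 4.17) in rods of N350 and 0.788 (0.686 to 0.902) in rods of N354, 2.21 and 0.284 in cones, and 0.378 and 0.133 in Müller glia. Its log2 fold changes over Müller glia were 2.70 (SE 0.26, adjusted p = 1.25e-08) in rods and 1.69 (SE 0.28, adjusted p = 3.65e-05) in cones, and neither was called without the block (adjusted p = 0.247 and 0.525). Astrocyte-like cells had 1.08 and 0.212 of *LPCAT1*, which was 2.85-fold (2.22 to 3.64) above Müller glia in N350 and 1.60-fold (0.550 to 3.84) in N354.

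**Figure D2:**
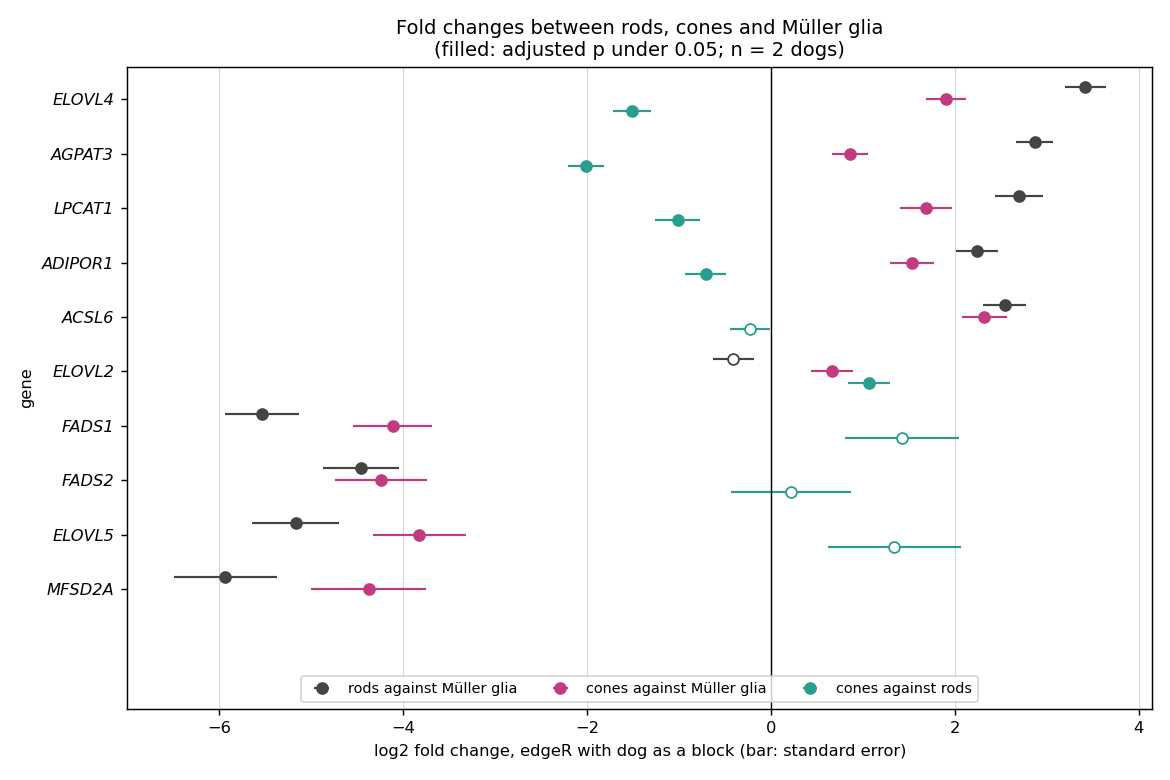
Log2 fold change of each gene in rods over Müller glia (grey), cones over Müller glia (pink) and cones over rods (green), with standard errors as bars and filled points at an adjusted p under 0.05 (edgeR, dog as a block, n = 2 dogs). *MFSD2A* has no point for cones over rods because both classes had at most 2 UMIs in a dog. The upper 5 genes lie to the right over Müller glia and the lower 4 between −3.82 and −5.93, with *ELOVL2* near 0 in rods.

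Cones and rods were compared to ask whether the photoreceptor classes share this pattern. Of the 10 genes, 4 were lower in cones than in rods and 1 was higher, beside 24.5% of all genes tested (13.5% higher, 11.1% lower, a split of 54.9% higher that became 71.9% with DESeq2). *AGPAT3* was lower in cones by a log2 fold change of −2.01 (SE 0.19, edgeR adjusted p = 6.88e-08, and 0.00850 without the block). *ELOVL4* was lower by −1.51 (SE 0.21, adjusted p = 1.07e-05, and 0.0382 without the block). *LPCAT1*, at −1.01 (SE 0.25, adjusted p = 0.00416), and *ADIPOR1*, at −0.71 (SE 0.22, adjusted p = 0.0245), were lower too, and were not called without the block (adjusted p = 0.926 and 0.963) or by DESeq2 (adjusted p = 0.214 and 0.385). Each of these 4 genes was lower in cones in both dogs. *ELOVL2* was the gene that was higher in cones, as given above. *ACSL6*, at −0.22 (SE 0.22, adjusted p = 0.505), *FADS1*, at 1.42 (SE 0.62, adjusted p = 0.103), *FADS2*, at 0.22 (SE 0.65, adjusted p = 0.856), and *ELOVL5*, at 1.34 (SE 0.72, adjusted p = 0.189), were not called.

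Photoreceptors together, as the mean of rods and cones, were compared with the mean of Müller glia and astrocyte-like cells. All 10 genes were called, 5 higher and 5 lower, beside 57.4% of all genes tested, and 6 of them without the block, beside 26.3%. The fold changes in the photoreceptor group were 10.3-fold for *ELOVL4*, 4.73-fold for *AGPAT3*, 4.02-fold for *ACSL6*, 3.62-fold for *LPCAT1* and 3.54-fold for *ADIPOR1* (edgeR, all higher in both dogs). In the glial group they were 42.9-fold for *FADS1*, 27.8-fold for *FADS2*, 26.8-fold for *MFSD2A* and 13.8-fold for *ELOVL5*. The 4 calls lost without the block were those of *LPCAT1* (adjusted p = 0.219), *ADIPOR1* (adjusted p = 0.227), *ELOVL5* (adjusted p = 0.0968) and *ELOVL2*. *ELOVL2* was lower in photoreceptors by −0.42 (SE 0.16, adjusted p = 0.0338, and 0.527 without the block), and it was not called in cells with at most 10% of mitochondrial UMIs (adjusted p = 0.0581). By ratios of levels this was −0.07 in N350 alone and −0.55 in N354 alone, so that its size rested on N354.

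Seen as shares, photoreceptors held 74.5% and 65.3% of all UMIs of *AGPAT3*, 73.7% and 68.4% of those of *ELOVL4*, 74.3% and 62.1% of *LPCAT1*, 63.2% and 62.2% of *ADIPOR1* and 67.4% and 63.8% of *ACSL6*, in N350 and N354, while holding 31.1% and 35.6% of the UMIs of all genes. Müller glia and astrocyte-like cells held 58.8% and 75.0% of the UMIs of *FADS1*, 62.6% and 79.4% of *FADS2*, 62.2% and 64.7% of *ELOVL5* and 55.6% and 71.4% of *MFSD2A*, with 29.8% and 30.2% of the UMIs of all genes. *ELOVL2* was shared, with 47.4% and 39.7% in photoreceptors and 38.2% and 39.7% in these glia. The share of photoreceptors in *FADS1* was 2.52% and 0.862%.

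**Figure D3:**
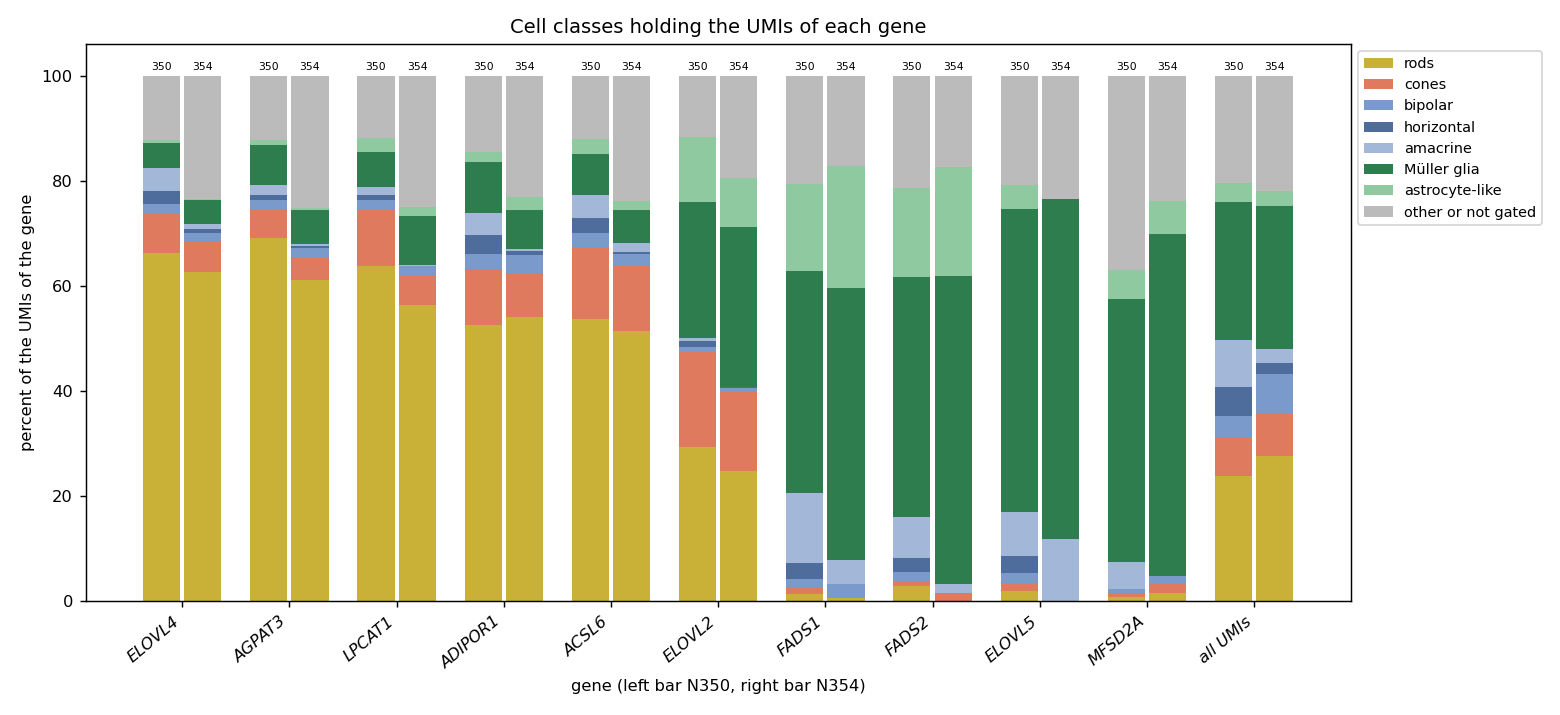
Percent of the UMIs of each gene that fell in each cell class, with N350 as the left bar and N354 as the right bar of a pair, and the UMIs of all genes as the last pair. Rods and cones (yellow and orange) fill 62.1% to 74.5% of the bars of the first 5 genes and at most 3.82% of those of *FADS1*, *FADS2*, *ELOVL5* and *MFSD2A*, and *ELOVL2* lies between. Grey holds small classes, cells that passed for several classes and cells that entered none.

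Markers of each class were also found at low levels in the other classes. Rod markers, 8 of 8 listed in N350 and 6 of 8 in N354 with none at 0, reached 3.55% and 4.17% of their summed level in rods in Müller glia, which was 14.1 against 398 in N350 and 20.5 against 491 in N354. *ELOVL4* reached 6.60% and 7.30% in Müller glia, *AGPAT3* 9.91% and 10.4%, *LPCAT1* 9.46% and 16.8%, *ACSL6* 13.2% and 12.3%, and *ADIPOR1* 16.9% and 14.1%. All 5 were above the share of the rod markers in both dogs. The marker lists also gated the cells, and cells that passed for several classes were left out. The gate therefore holds down the marker shares in this paragraph, and a gene above them need not exceed carry-over. In the other direction Müller glia markers reached 2.74% and 1.16% of their level in rods, with 0 and 2 of the 7 markers at 0 there. *FADS1* in rods stood at 3.53% and 1.10% of its level in Müller glia, *MFSD2A* at 1.63% and 2.41%, *ELOVL5* at 3.66% and 0%, and *FADS2* at 6.99% and 0%. In rods of N350 *FADS2* thus stood above the Müller glia markers, *MFSD2A* below them and *FADS1* and *ELOVL5* slightly above, and in N354 only *MFSD2A*, with 1 UMI, stood above them. The part of free RNA in these UMIs was not tested. In cones rod markers stood at 8.33% and 8.11% and Müller glia markers at 7.02% and 7.93%, while *ELOVL4* stood at 36.8% and 31.8% and *AGPAT3* at 25.3% and 23.2% of their level in rods. The genes higher in Müller glia were nearer to the marker shares in cones. *FADS1* stood there at 9.98% and 1.89% of its level in Müller glia, *FADS2* at 7.15% and 9.19%, *ELOVL5* at 9.87% and 0%, and *MFSD2A* at 5.36% and 8.30%. The part of carry-over in these UMIs of cones was not tested.

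The levels of *ELOVL4*, *AGPAT3* and *FADS1* were also read within ranges of the mitochondrial share, as were *FADS2* and *MFSD2A* in rods. In rods with at most 5%, over 5% to 10% and over 10% of such UMIs, *ELOVL4* had 13.6, 13.2 and 11.9 in N350 and 14.7, 16.5 and 15.4 in N354, against 1.04, 0.832 and 0.510 and 2.23, 1.25 and 0.980 in Müller glia. *AGPAT3* had 18.2, 18.3 and 16.5 in N350 and 16.2, 19.5 and 18.5 in N354, against at most 2.08 in Müller glia of any range. In Müller glia of N350 *FADS1* had 1.27, 0.972 and 0.603 over the same ranges, the last from 13 UMIs in 83 cells. Those of N354 had 1.22, 0.696 and 0.642, the first from 6 UMIs in 19 cells. In rods of N350 *FADS1* had 0.022, 0.041 and 0.084, from 6, 10 and 5 UMIs. *FADS2* had 0.033, 0.041 and 0.168 there, from 9, 10 and 10 UMIs. In rods of N354 the 2 UMIs of *FADS1* were in the range over 5% to 10%, and *FADS2* had none. The 2 and 1 UMIs of *MFSD2A* in rods of N350 and N354 were in the range over 10%. The cause was not tested.

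The dogs differed in the overall level of several genes. Over all cells *ELOVL5* was 13.6-fold higher in N350 than in N354, *FADS2* 6.39-fold, *LPCAT1* 3.88-fold, *ADIPOR1* 3.69-fold, *FADS1* 1.80-fold and *MFSD2A* 1.73-fold. *ELOVL2* was at 1.0-fold, *AGPAT3* at 0.756-fold, *ELOVL4* at 0.689-fold and *ACSL6* at 0.571-fold. The dogs hold the classes in different shares, and 4 of these ratios lay outside those of the single classes, which ran from 2.73-fold to 12.6-fold for *ELOVL5*, 0.893-fold to 1.49-fold for *MFSD2A*, 0.865-fold to 1.37-fold for *AGPAT3* and 0.763-fold to 1.48-fold for *ELOVL4*. The range of *ELOVL5* came from only 2 classes. For *LPCAT1* the difference held in every class with UMIs in both dogs, from 2.85-fold in Müller glia to 8.44-fold in bipolar cells. For *ADIPOR1* it held from 2.34-fold in astrocyte-like cells to 14.4-fold in amacrine cells. In N354 the upper ends rest on 6 UMIs of *LPCAT1* and 1 UMI of *ADIPOR1*, and the lower end of *ADIPOR1* on 8 UMIs. The counts of the dogs were made on different gene annotations, so that dog and annotation cannot be told apart. Annotated genes of RefSeq (UU_Cfam_GSD_1.0) overlap *ELOVL5*, *FADS1* and *MFSD2A*, the last with *MYCL*, and how the counting shared reads between them is not given in the sources used here.

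The other genes of fatty acid and phospholipid supply came from 8 lists of 86 genes. Some of these, such as *FABP5* and *FABP7*, were listed in 1 dog only and could not be tested. The 70 tested genes were listed in both dogs and had enough UMIs. In rods against Müller glia 21 were higher and 23 lower, which is 44 of 70, near the 58.3% of all genes. Without the block 17 were called, beside 19.4% of all genes. The median log2 fold change over all 70 was −0.00, beside 0.04 over all genes tested. The list with the most uniform direction was elongation and desaturation, with 9 of 10 tested genes lower in rods, 1 higher, 6 of the 10 called without the block and a median of −2.41. Of the 9, *HSD17B12* at −0.57, named after its values were seen, was lower by plain ratios of levels in 1 dog only. *ELOVL6* at −1.53 (edgeR adjusted p = 0.0467) rested on levels of at most 0.0270 in rods and Müller glia. Neither was called without the block (adjusted p = 0.427 and 0.364), and DESeq2 did not call *ELOVL6* (adjusted p = 0.0910). *SCD5*, a stearoyl-CoA desaturase, had levels of 0.0943 and 0.0112 in rods and 1.44 and 0.993 in Müller glia, a log2 fold change of −4.81 (SE 0.34, edgeR adjusted p = 1.07e-10, and 0.0108 without the block). *HACD4*, a dehydratase of the elongation cycle, was at −4.88 (SE 0.59, adjusted p = 2.93e-07, and 0.0234 without the block). *ELOVL1*, an elongase of saturated chains, was at −4.56 (SE 0.87, adjusted p = 0.000115, and 0.0159 without the block), from no UMI in rods of N350. The gene of this list that was higher in rods was *HACD3*, another dehydratase of that cycle, named after its values were seen, with levels of 4.73 and 4.61 in rods, 6.01 and 5.17 in cones and 0.545 and 0.610 in Müller glia. *ELOVL6*, which elongates palmitate, was higher in cones than in rods, with 0.788 and 0.193 in cones against 0.0105 and 0.00747 in rods. Its log2 fold change over rods was 5.73 (SE 0.48, adjusted p = 7.08e-09, and 0.0349 without the block).

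The acyl-CoA synthetases split by gene, with 3 of 7 tested genes higher in rods than in Müller glia and 2 lower. Without the block 3 of them were called. Beside these counts, 58.3% of all genes were called with the block and 19.4% without it. *ACSL3* had 0.0733 and 0.0262 in rods, 0.518 and 0.361 in cones and 2.08 and 2.17 in Müller glia, a log2 fold change of rods over Müller glia of −5.68 (SE 0.29, edgeR adjusted p = 3.67e-12, and 0.000662 without the block). *ACSL1* went the other way, with 1.43 and 0.908 in rods, 3.42 and 1.68 in cones and 0.108 and 0.0606 in Müller glia (log2 fold change 3.37, SE 0.23, adjusted p = 6.17e-11, and 0.00998 without the block). *ACSL4*, which favours arachidonic acid, was higher in rods by 2.15 (SE 0.31, adjusted p = 3.59e-06, and 0.00859 without the block). *SLC27A4* was the other gene that was higher in rods and *SLC27A1* the other that was lower, both named after their values were seen. Neither was called without the block (adjusted p = 0.676 and 0.823) or by DESeq2 (adjusted p = 0.246 and 0.187). In the list of binding and uptake 1 of 4 tested genes was called, in both fits, beside 58.3% of all genes and 19.4% without the block. *DBI*, the acyl-CoA binding protein, had 1.97 and 2.31 in rods and 32.8 and 58.2 in Müller glia (log2 fold change −4.79, SE 0.30, adjusted p = 2.14e-11, and 0.000662 without the block).

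Among the acyltransferases 2 of 12 tested genes were higher in rods and 4 lower, 3 of them called without the block. Beside these counts, 58.3% of all genes were called with the block and 19.4% without it. *GPAT3*, which opens glycerolipid synthesis, had 1.41 and 1.21 in rods, 2.01 and 1.32 in cones and 0.0461 and 0.0531 in Müller glia, a log2 fold change of 4.36 (SE 0.28, edgeR adjusted p = 3.19e-11, and 0.00419 without the block). *MBOAT2*, which remakes lysophospholipids, was at −4.78 (SE 0.40, adjusted p = 1.32e-09, and 0.00930 without the block). *AGPAT4*, a relative of *AGPAT3*, was at −3.49 (SE 0.75, adjusted p = 0.000391, and 0.107 without the block), from levels of at most 0.0429 in these classes. *LCLAT1* was the other gene that was higher, and *LPCAT4* and *GPAM* were the others that were lower, named after their values were seen. *LCLAT1* and *GPAM* were not called without the block (adjusted p = 0.553 and 0.0554), and *LCLAT1* was not called by DESeq2 (adjusted p = 0.198). Phospholipid synthesis had 8 of 16 tested genes higher in rods and 2 lower, with a median of 0.55. These 10 calls stand beside 58.3% of all genes, and 1 of them was made without the block, beside 19.4% of all genes. *LPIN1*, a phosphatidate phosphatase, had 0.777 and 0.486 in rods and 0.0413 and 0.0227 in Müller glia (log2 fold change 3.88, SE 0.35, adjusted p = 3.71e-09, and 0.0191 without the block). *CDS1*, a CDP-diacylglycerol synthase, had 4.63 and 1.18 in rods, 10.8 and 1.28 in cones and 0.291 and 0.0606 in Müller glia (log2 fold change 3.75, SE 0.29, adjusted p = 2.98e-10, and 0.147 without the block). *PEMT* and *SELENOI* were the lower genes of this list, *PEMT* at −2.27 (SE 0.52, adjusted p = 0.000805, and 0.205 without the block), with *SELENOI* named after its values were seen. *SELENOI* was not called without the block (adjusted p = 0.211).

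**Figure D4:**
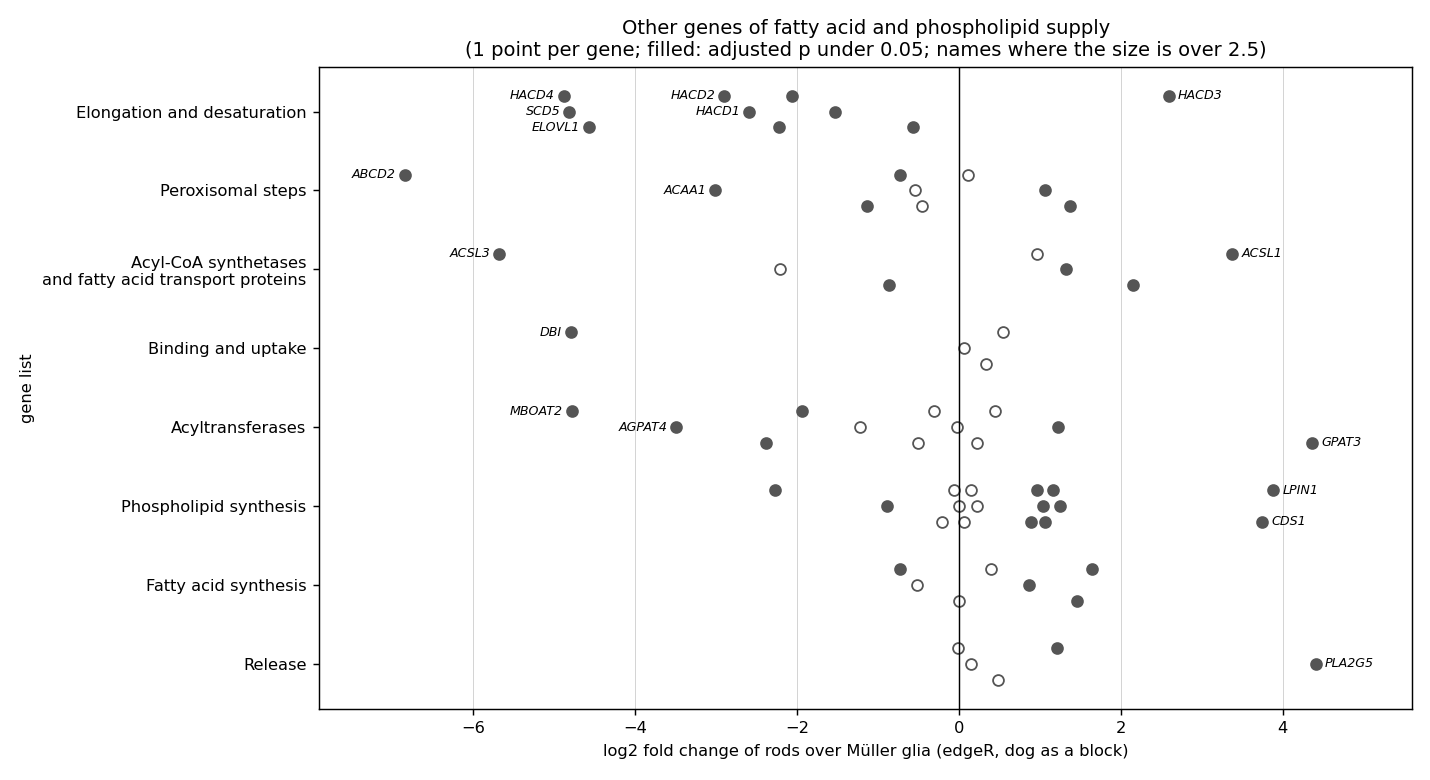
Log2 fold change of rods over Müller glia for the 70 tested genes of 8 lists, 1 point per gene, filled at an adjusted p under 0.05 (edgeR, dog as a block), with names where a called gene exceeded 2.5 in size. Elongation and desaturation lies left of 0 except *HACD3*, and phospholipid synthesis has 8 filled points to the right and 2 to the left.

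Peroxisomal genes had 2 of 9 tested genes higher in rods and 4 lower, 2 of them called without the block. Beside these counts, 58.3% of all genes were called with the block and 19.4% without it. *ABCD2*, a peroxisomal importer of very long chains, had 1 UMI in rods of N350 and none in those of N354, against 78 and 63 UMIs and levels of 0.124 and 0.239 in Müller glia, with a log2 fold change of −6.84 (SE 0.58, edgeR adjusted p = 2.55e-09, and 0.00367 without the block). *ACAA1*, the thiolase of peroxisomal shortening, had 0.286 and 0.261 in rods, 0.627 and 0.838 in cones, 1.53 and 1.86 in Müller glia and 2.74 and 3.75 in astrocyte-like cells (log2 fold change −3.01, SE 0.21, adjusted p = 7.36e-11, and 0.000662 without the block). *ACOT8*, a thioesterase, was at 1.37 (SE 0.41, adjusted p = 0.00719, and 0.318 without the block). *DECR2*, *SCP2* and *HSD17B4* were the other called genes, named after their values were seen. None of these was called without the block (adjusted p = 0.789, 0.0528 and 0.196). DESeq2 did not call *ACOT8* (adjusted p = 0.0825) or *DECR2* (adjusted p = 0.244). In fatty acid synthesis 3 of 7 genes were higher in rods and 1 was lower, beside the same shares of all genes. None of them was called without the block. *ACLY*, which makes cytosolic acetyl-CoA, was at 1.64 (SE 0.22, adjusted p = 1.10e-06, and 0.181 without the block) and *ACACA*, which makes malonyl-CoA, at 1.46 (SE 0.27, adjusted p = 8.30e-05, and 0.100 without the block). The lower gene was *FASN*, named after its values were seen. It was not called without the block (adjusted p = 0.789) or by DESeq2 (adjusted p = 0.0745). *SREBF1*, a transcription factor of lipid synthesis, was the gene of that list that differed between photoreceptors, with 0.758 and 0.631 in rods and 0.0921 and 0.0902 in cones (log2 fold change of cones over rods −2.93, SE 0.31, adjusted p = 2.85e-07, and 0.0113 without the block). Release of fatty acids from lipids had 2 of 5 tested genes higher in rods, 1 of them called without the block, and none lower. The same shares of all genes stand beside these counts. *PLA2G5*, a secreted phospholipase, had 1.05 and 1.73 in rods, 1.62 and 3.07 in cones and 0.0366 and 0.0606 in Müller glia (log2 fold change 4.41, SE 0.32, adjusted p = 1.68e-10, and 0.00321 without the block). *PNPLA2*, a triglyceride lipase, was at 1.21 (SE 0.31, adjusted p = 0.00185, and 0.763 without the block), and DESeq2 did not call it (adjusted p = 0.280). Its levels were 0.824 and 0.0411 in rods and 0.277 and 0.0114 in Müller glia.

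In cones against rods, 13 of the 70 genes were higher and 5 lower, a share near the 24.5% of all genes tested, and 5 were called without the block, beside 2.22% of all genes. Cones were higher in *ABCD2* by 5.05 (SE 0.84, edgeR adjusted p = 0.000121, and 0.0421 without the block), from 6 and 9 UMIs in cones. They were higher in *ACSL3* by 3.03 (SE 0.31, adjusted p = 1.76e-07, and 0.0127 without the block) and in *ACAA1* by 1.39 (SE 0.22, adjusted p = 7.15e-05, and 0.0403 without the block). With *ELOVL6* and *SREBF1* these were the 5 genes called in both fits. In the blocked fit alone cones were also higher in *HACD1*, *TECR*, *ACSL1*, *DBI*, *MBOAT2*, *CDS1*, *CDS2*, *LPIN2* and *PLA2G5*, by 0.77 to 2.70 (adjusted p without the block between 0.226 and 0.907). They were lower in *AGPAT5*, *LPIN1*, *CEPT1* and *PNPLA2*, at −0.95 to −1.99 (adjusted p without the block between 0.704 and 0.923). *TECR*, *CDS1*, *LPIN2* and *CEPT1* were named here after their values were seen. Müller glia markers stood at 7.02% and 7.93% of their Müller glia level in cones, against 2.74% and 1.16% in rods. The part of carry-over in genes such as *DBI*, which was higher in Müller glia than in either photoreceptor class, was not tested.

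Genes with a profile like that of a member were sought over the 14 sums of class and dog, by Pearson's r of the log2 level after subtracting the mean of each dog, among 6298 genes. The sums share 2 libraries and 7 classes, so that r describes likeness and carries no test. *AGPAT3* was most like *SLCO4A1* (r = 0.981), *CDR2* and *CCDC112*, and *ELOVL4* was most like *CEP164* (r = 0.972), *TUB* and *LAPTM4B*. *LPCAT1* was most like *CPT1A* (r = 0.961), *MEF2C* and *HNRNPF*, *ACSL6* most like *INPP1* (r = 0.960), *NDUFA4L2* and *GIT2*, and *ADIPOR1* most like *TMTC3* (r = 0.947), *PODXL* and *THOC2*. *FADS1* was most like *TMED3* (r = 0.963), *KRTCAP2* and *APRT*, and *ELOVL2* most like *NOTCH2* (r = 0.958), *TRPS1* and *CLIC4*. *ELOVL5*, *FADS2* and *MFSD2A* had under 100 UMIs in a dog and were left out. Between the members themselves r was highest for *LPCAT1* with *AGPAT3* (0.887) and lowest for *ELOVL4* with *FADS1* (−0.82).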

How the data were processed

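Single-cell libraries of neuroretina (10x, 3′ ends) came from 2 normal dogs. The authors aligned and counted reads with Cell Ranger 6.0.2, and what they deposited holds, for every cell, the unnormalized number of UMIs of each gene (raw counts). The paper names canFam6, and the gene lists show different annotations for the dogs, with 15236 summed names in both, which hold 82.8% and 89.0% of UMIs. Levels use all UMIs of a class, and the test uses those names.

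Each cell was gated by raw UMIs of marker lists. A list needed at least 6 UMIs, 2 markers and 2 times the number expected from the depth of the cell and the share of the list in the library, and had to lead the next passing list by 2 times. Cells that passed for several lists (55 in N350 and 24 in N354) and cells that passed for none (2057 and 1144) were left out of classes. These thresholds were set on the markers alone. No limit on mitochondrial UMIs was applied, since the limit of 5% left 1 cone and 19 Müller glia in N354. Doublets were removed by the gate alone, and an alternative removed the 4% of cells with the highest Scrublet scores in scanpy 1.11.5, whose own threshold marked 0 and 4 cells.

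For each class with 20 or more cells in each dog, counts were added up within a dog and tested with edgeR 4.0.16 (R 4.3.3, quasi-likelihood test, TMM, genes with at least 10 UMIs), with DESeq2 1.42.0 as an alternative. Dog was a block because all classes of a dog share 1 animal and 1 gene annotation. Their deviations from class means correlated between 0.620 and 0.848 (median 0.722) over 21 pairs of classes and 9908 genes. Animal and annotation cannot be told apart in these correlations. Tested on simulated data with 200 changed genes, the fit recovered 194 (97%) for rods against Müller glia with 28 false calls among 11912 genes. For cones against rods it recovered 190 (95%) with 37 false calls among 11926. Both are more false calls than an adjusted p under 0.05 allows for. The changed genes had at least 200 UMIs and all changed by the same factor, up or down. The other genes were simulated without a difference between classes or dogs. Recovery of genes with fewer UMIs or smaller changes was not tested. In the dogs 58.3% of all genes were called in rods against Müller glia, and recovery at such a share was not tested.

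Levels have exact Poisson 95% intervals, and ratios exact conditional ones (scipy 1.17.1). Both describe counting error alone, and where no UMI was found the limit is that of 3 UMIs. Named are all 10 genes, up to 3 genes per list with the largest change in rods against Müller glia and up to 2 in cones against rods, and 3 alike genes per member, with a pseudocount of 0.05. With dog as a block, the overall difference between the 2 dogs is removed. The p-values then rest on how far differences between classes vary from dog to dog, pooled over all classes in the fit. The fit also shares its estimate of this spread between genes, so that the p-value of a gene rests in part on other genes. Without the block the p-values also rest on the difference between the dogs. Members and lists were chosen with earlier results of these data known. RefSeq sequences were not used here.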

Additional observations from a re-analysis of the deposited data

How the results depend on the processing

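Without dog as a block 2332 genes were called in rods against Müller glia (7009 with it), 1142 in cones against Müller glia (5279), 3162 in photoreceptors against glia (6905) and 267 in cones against rods (2950). Of the calls of the 10 genes 18 were lost without the block, each given in the report, and none changed direction. DESeq2 called 1948 genes in cones against rods. The share of calls that were higher went from 48.6% to 35.2% in rods against Müller glia without the block, and from 54.9% to 80.9% without the block and 71.9% with DESeq2 in cones against rods. DESeq2 shifted the median gene by −0.22 in rods against Müller glia, −0.20 in photoreceptors against glia and 0.15 in cones against rods, and the stricter gate (12 UMIs) by −0.12 in the first.

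Other calls that changed were of *ELOVL2* (rods against Müller glia, called at −0.53 by the stricter gate, adjusted p = 0.0300, and photoreceptors against glia, not called with at most 10% of mitochondrial UMIs, adjusted p = 0.0581) and, in cones against rods with that limit, of *FADS1* (1.86, adjusted p = 0.00901) and of *MFSD2A*, which had at most 2 UMIs per sum there. The cause was not tested. Removing Scrublet doublets, leaving out mitochondrial genes and dropping the filter on low counts changed none of the 44 calls and counts. The limit of 5% could not be fitted, and that of 10% and the stricter gate left out horizontal cells or horizontal and amacrine cells. With 1 dog left out there is no test, and the values of each dog stand in the report. Few UMIs limit the precision of *ELOVL5*, *FADS2* and *MFSD2A* in N354, with 17, 63 and 63 UMIs in all cells.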
